A study of Homo sapiens with 6 samples.

Results

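A set of 8 enzymes of the mevalonate pathway, which turns acetyl-CoA into farnesyl and geranylgeranyl diphosphate, was followed in T24 cells after knockdown of USP43, a deubiquitinating enzyme. The genes were taken by symbol from the deposited table, and each of the 8 named (ACAT2, HMGCS1, MVK, PMVK, MVD, IDI1, FDPS and GGPS1) matched 1 of its 63241 genes and was among the 11417 tested. T24 is an established human bladder cancer line, kept here in RPMI medium with fetal bovine serum, and the series asked how USP43 bears on lipid metabolism in such cells. The 3 siNC libraries came from cells with a control small interfering RNA and wild type USP43, and the 3 siUSP43 libraries from cells with a small interfering RNA against USP43. Whether the numbers 1 to 3 of siUSP43 stand for repeats with 1 duplex or for different duplexes is not stated. All 6 libraries come from this single line and share 1 batch label, and protein was not analysed here.

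The mevalonate pathway supplies the isoprene units of cholesterol, of ubiquinone and dolichol, and of the farnesyl and geranylgeranyl groups that anchor small GTPases to membranes. Its enzyme genes are classical targets of SREBP2, a transcription factor that is released from the endoplasmic reticulum when membrane sterol is low. Farnesyl diphosphate is the branch point, from which squalene synthase leads to sterols and other enzymes lead to the longer isoprenoids.

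Libraries held 21430574 to 25577200 gene counts. USP43 itself was at 2.36, 2.09 and 2.08 FPKM (fragment counts per kilobase of exon, scaled to the size of the library) in siNC and 1.02, 0.67 and 0.80 in siUSP43, a log2 fold change of -1.40 (SE 0.14, edgeR, Benjamini-Hochberg adjusted p = 5.63e-06). Of all genes tested, 56.1% passed at an adjusted p under 0.05, 28.0% upward and 28.1% downward. Of the epithelial markers, the keratins KRT7, KRT8, KRT18 and KRT19 were expressed. EPCAM, in the same list, was low, at 0.48, 0.73 and 0.55 FPKM in siNC and 1.23, 1.3 and 1.18 in siUSP43, and was not tested. Of 8 urothelial lineage genes only PPARG and FOXA1 reached 1 FPKM in any library and KRT20 was at 0. Leukocyte, endothelial and fibroblast markers summed to at most 1.06 FPKM per list in any library, and 3 of the 5 leukocyte markers were at 0. Replicates 2 and 3 of siUSP43 were the least alike pair of one group (chi-square of 14.99 per degree of freedom, against 2.28 to 8.65 for the other pairs). Separate cultures are not stated for the replicates, and the p-values then reflect the spread of these libraries alone, possibly a technical one.

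Among the 8 enzymes 3 rose, 1 fell and 4 did not pass (edgeR quasi-likelihood test, Benjamini-Hochberg adjusted over all tested genes). PMVK rose most, 1.71-fold, followed by FDPS at 1.31-fold and GGPS1 at 1.12-fold. IDI1 fell, with siNC 1.14-fold above siUSP43. The 4 calls of 8 lie near the 56.1% called over all genes, as do 3 rises against 28.0%, so the counts set nothing apart. The siUSP43 values lay above all siNC values for 3 members and below them for 1, where 62.2% of all tested genes had groups that did not overlap, 32.5% above and 29.6% below. The median log2 fold change of the 8 was 0.17, against -0.01 over all tested genes, and the median size of change regardless of sign was 0.18, against 0.24. In bulk RNA, fewer cells expressing a gene and less RNA per cell cannot be told apart.

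**Figure D1:**
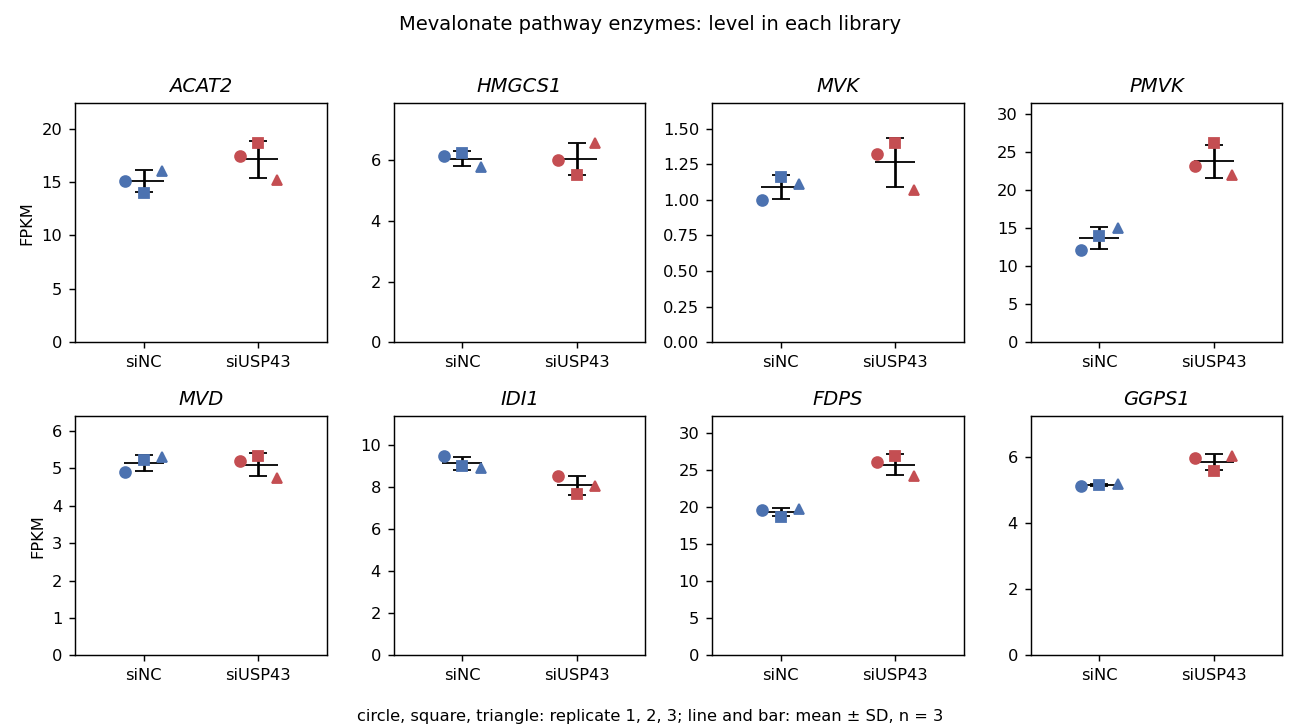
FPKM (vertical axis, from 0) of each enzyme in the 3 siNC and 3 siUSP43 libraries, with 1 symbol per replicate and the mean ± SD. The siUSP43 points of PMVK, FDPS and GGPS1 lie above every siNC point, those of IDI1 lie below, and the other 4 genes overlap.

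The bases before the start sites are shown for FDPS, IDI1 and GGPS1, the 3 enzymes after mevalonate decarboxylation. All 3 passed in the main edgeR fit and they did not move alike. Sequences are from RefSeq promoter windows on GRCh38.p14, written 5′ to 3′ along the gene's strand and limited to the longest stretch free of annotated exons. The stretches are chr1:155308616-155308747 (plus strand), chr10:1049171-1049369 (minus strand) and chr1:235326969-235327159 (plus strand), and end 119, 52 and 57 bases from the RefSeq start. Capitals mark CCAAT (NF-Y type) and GGGCGG (Sp1 type) on either strand.
FDPS: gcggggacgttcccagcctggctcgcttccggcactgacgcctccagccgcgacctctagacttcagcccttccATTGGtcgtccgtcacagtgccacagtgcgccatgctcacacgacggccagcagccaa
IDI1: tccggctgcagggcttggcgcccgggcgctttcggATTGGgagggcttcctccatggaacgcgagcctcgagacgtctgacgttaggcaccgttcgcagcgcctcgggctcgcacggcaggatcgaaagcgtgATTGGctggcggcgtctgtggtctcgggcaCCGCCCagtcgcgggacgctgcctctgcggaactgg
GGPS1: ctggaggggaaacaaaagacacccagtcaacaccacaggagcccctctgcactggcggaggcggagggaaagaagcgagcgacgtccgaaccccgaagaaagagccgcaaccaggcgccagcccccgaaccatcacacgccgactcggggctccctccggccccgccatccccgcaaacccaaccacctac

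Promoter windows were found for 7 of the 8 genes, all but ACAT2. The windows of PMVK and MVK lie wholly in annotated exons or in gene spans that start or end there, and are not printed. The printed GGPS1 stretch holds no annotated exon but lies inside the span of ARID4B on the other strand (chromosome 1, 235131634 to 235328219). Over the full 250 bases before the start, on both strands, CCAAT was in 5 of the 7 (HMGCS1, MVK, MVD, IDI1 and FDPS), against 32.0% of 35116 RefSeq windows of the same length. GGGCGG was in 6 of the 7, all but GGPS1, against 42.6% of windows. PMVK and GGPS1, which rose, held no CCAAT, while FDPS, which also rose, held 3 copies and IDI1, which fell, held 2. The E2F type letters TTTCCCGC, TTTGGCGC, TTTCGCGC and TTTGCCGC were in 2.8% of windows and in 1 of the 7, MVK, where the match to TTTCCCGC on the other strand overlaps a GGGCGG. TCACNCCAC, a sterol regulatory element type, was in 0.9% of windows and CACGTG in 6.3%, and neither was in any of the 7. These are matches of letters in 1 window per gene, not measured binding. Only these letters were searched, so an element whose letters differ from them would not be counted, and no match does not mean no element.

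The entry enzymes did not pass. ACAT2, the cytosolic thiolase that joins acetyl-CoA units (ENSG00000120437, GRCh38 chromosome 6, 159762045 to 159779112, plus strand), was at 15.14, 14.02 and 16.05 FPKM in siNC and 17.48, 18.67 and 15.20 in siUSP43. The third siUSP43 library lies within the siNC range, and the other two lie above it. Its log2 fold change was 0.17 (95% interval -0.02 to 0.35, edgeR adjusted p = 0.108). Without siUSP43 replicate 3 the value was 0.24 and passed (edgeR adjusted p = 0.00637), while it was 0.10 without siUSP43 replicate 2 (edgeR adjusted p = 0.318) and 0.11 without siNC replicate 2 (edgeR adjusted p = 0.335).

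HMGCS1, which makes HMG-CoA (ENSG00000112972, chromosome 5, 43287470 to 43313512, minus strand), was at 6.14, 6.22 and 5.77 FPKM in siNC and 5.99, 5.52 and 6.57 in siUSP43. The groups overlap fully, with the siUSP43 values spread more widely than the siNC values. Its log2 fold change was -0.02 (95% interval -0.17 to 0.13, edgeR adjusted p = 0.835).

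Of the 3 enzymes that phosphorylate and decarboxylate mevalonate, only the middle one passed. MVK, mevalonate kinase (ENSG00000110921, chromosome 12, 109573255 to 109598125, plus strand), was the least expressed enzyme, at 1.00, 1.16 and 1.11 FPKM in siNC and 1.32, 1.40 and 1.07 in siUSP43. As for ACAT2, the first and second siUSP43 libraries lie above the siNC range and the third lies within it. The log2 fold change was 0.20 (95% interval -0.05 to 0.44, edgeR adjusted p = 0.155). It was 0.30 and passed without siUSP43 replicate 3 (edgeR adjusted p = 0.0175), while it was 0.12 without siUSP43 replicate 2 (edgeR adjusted p = 0.403) and 0.14 without siNC replicate 1 (edgeR adjusted p = 0.389). MVK had 257 to 355 counts per library, so counting alone gives a relative error of 5.93% in siNC, against a spread between libraries of 7.51%.

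PMVK, phosphomevalonate kinase (ENSG00000163344, chromosome 1, 154924740 to 154936719, minus strand), was at 12.15, 13.95 and 15.10 FPKM in siNC and 23.22, 26.24 and 22.05 in siUSP43. The lowest siUSP43 library is well above the highest siNC library. Its log2 fold change was 0.78 (SE 0.10, edgeR adjusted p = 3.11e-05), which places it above 96.6% of tested genes. The value ran from 0.69 to 0.85 over 16 alternative settings and passed in each of the 16.

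MVD, the decarboxylase that makes isopentenyl diphosphate (ENSG00000167508, chromosome 16, 88651935 to 88663161, minus strand), was at 4.89, 5.22 and 5.29 FPKM in siNC and 5.19, 5.33 and 4.75 in siUSP43. The groups overlap, and the log2 fold change was -0.03 (95% interval -0.18 to 0.12, edgeR adjusted p = 0.733).

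The enzymes that assemble isoprenoids all passed in the main edgeR fit, in different directions, where 56.1% of all tested genes passed. The calls of IDI1 and GGPS1 did not hold in every alternative setting. IDI1, the isomerase that makes dimethylallyl diphosphate (ENSG00000067064, chromosome 10, 1039152 to 1049119, minus strand), was at 9.48, 9.0 and 8.88 FPKM in siNC and 8.53, 7.65 and 8.06 in siUSP43. Every siUSP43 library lies below every siNC library, by a small margin. The log2 fold change was -0.19 (SE 0.06, edgeR adjusted p = 0.0204). The call ended without siNC replicate 1 (-0.16, edgeR adjusted p = 0.0856) and without siUSP43 replicate 2 (-0.16, edgeR adjusted p = 0.0658).

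FDPS, farnesyl diphosphate synthase and the target of the bisphosphonate drugs (ENSG00000160752, chromosome 1, 155308748 to 155320666, plus strand), was at 19.61, 18.77 and 19.78 FPKM in siNC and 26.11, 26.97 and 24.24 in siUSP43. The groups stand apart, and FDPS was the most expressed of the 8 in both groups. The log2 fold change was 0.39 (SE 0.05, edgeR adjusted p = 7.73e-05), and it passed in 16 of 16 alternatives, between 0.36 and 0.44.

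GGPS1, geranylgeranyl diphosphate synthase (ENSG00000152904, chromosome 1, 235327350 to 235344532, plus strand), was at 5.13, 5.17 and 5.19 FPKM in siNC and 5.97, 5.6 and 6.05 in siUSP43. The groups do not overlap, and the 3 siNC values are closer together (0.592%, relative SD) than the 4.18% that counting error alone would give. The log2 fold change was 0.17 (SE 0.06, edgeR adjusted p = 0.0373). The call held in 7 of 16 alternatives and in 1 of the 6 that leave out a library, the one without siUSP43 replicate 2 (edgeR adjusted p = 0.0263). In the other 5 it ran from 0.15 to 0.18, and with DESeq2 it was 0.17 (adjusted p = 0.0836).

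**Figure D2:**
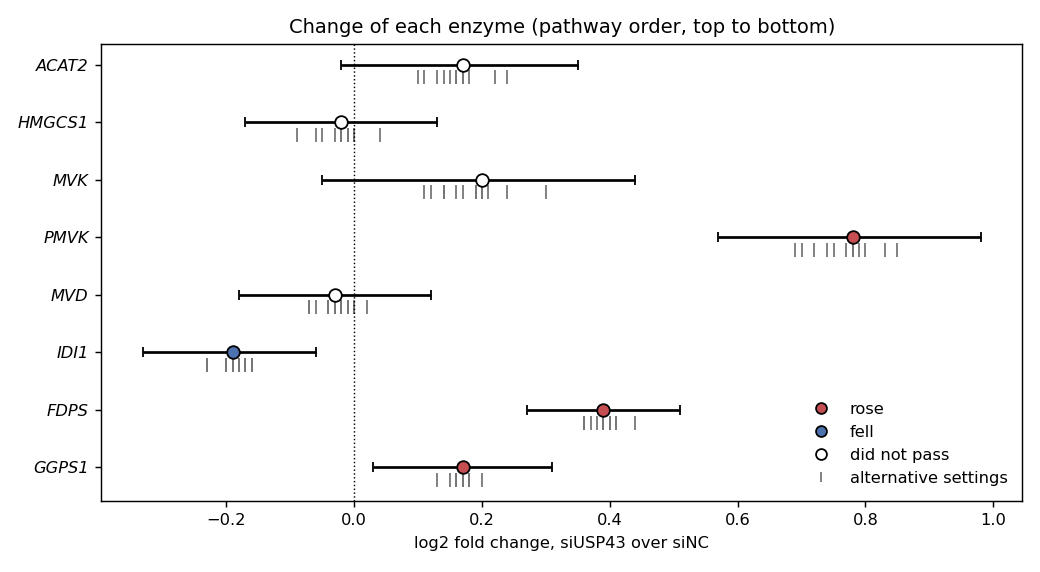
Log2 fold change of siUSP43 over siNC (horizontal axis) for the 8 enzymes in pathway order, with points for the main value, bars for the 95% interval and short grey marks for 16 alternative settings. PMVK at 0.78 and FDPS at 0.39 stand clear of 0 under every setting drawn, while the intervals of ACAT2, HMGCS1, MVK and MVD include 0.

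Some reads could belong to neighbours, since the strand setting of the counting was not given in the sources used here. In GENCODE release 29, FDPS shares 693 of its 3718 exonic bases with RUSC1-AS1 on the other strand, which was at 1.85 FPKM in both groups (log2 fold change -0.02, SE 0.12). ACAT2 shares 397 exonic bases with TCP1, a chaperonin subunit gene on the other strand at 50.4 ± 0.947 FPKM in siNC and 52.3 ± 1.53 in siUSP43 (SD, n = 3 each). It shares 1458 more with SOD2-OT1, which was at most at 0.08 FPKM, but their spans in the deposited table overlap by only 288 bases. Release 29 gives ACAT2 4299 exonic bases against 2639 in the deposited table. The span of ACAT2 also overlaps by 485 bases that of SOD2, the mitochondrial superoxide dismutase gene, which fell by 0.73 on the log2 scale (SE 0.06). GGPS1 shares 1422 of 3809 exonic bases with a further gene on its own strand (ENSG00000285053), at 0.583 and 0.720 FPKM on average in siNC and siUSP43. It shares 138 more with ARID4B on the other strand, which was at 4.35 ± 0.138 FPKM in siNC and 4.11 ± 0.342 in siUSP43 (SD, n = 3 each) and did not pass. IDI1 shares 643 exonic bases with IDI2-AS1, which was at most at 0.2 FPKM, MVK shares 306 with MMAB, and HMGCS1 shares 703 with an unnamed antisense gene listed at 0. PMVK and MVD share none with a neighbour within 5 kb. The part of shared reads in the values of FDPS, ACAT2, GGPS1, IDI1 and MVK was not tested.

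The order of FPKM levels in siNC was FDPS at 19.4, ACAT2 at 15.1, PMVK at 13.7, IDI1 at 9.12, HMGCS1 at 6.04, GGPS1 at 5.16, MVD at 5.13 and MVK at 1.09. ACAT2 and PMVK overlap in that order, as do GGPS1 and MVD, and the other neighbours are apart. In siUSP43 PMVK was second at 23.8 FPKM, behind FDPS at 25.8, and their ranges overlap only through the second PMVK library. All PMVK values were above those of ACAT2, at 17.1 FPKM, and HMGCS1 overlapped GGPS1. Of the FPKM summed over the 8 genes, PMVK held 16.5, 19.0 and 19.6% in siNC and 24.8, 26.9 and 25.1% in siUSP43. IDI1 held 12.9, 12.2 and 11.5% in siNC and 9.1, 7.9 and 9.2% in siUSP43. FDPS, with 25.9% and 27.7% on average, held the largest share in each group. The summed level was 74.7 ± 2.10 FPKM in siNC and 93.1 ± 4.74 in siUSP43 (SD, n = 3 each). Order, shares and sum all depend on the exonic sizes that divide the counts, from 1002 bases for PMVK to 9018 for MVK. By raw counts in siNC, PMVK was below HMGCS1, at 348, 408 and 443 against 1164, 1204 and 1119.

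Ratios of 1 enzyme to the one before it among the 8 do not depend on how libraries are scaled. Compared were 8 such ratios, with FDFT1 (squalene synthase) set against FDPS as the step toward sterols. The 8 enzymes are not the whole pathway, so neighbours among them need not be consecutive steps. The log2 FPKM ratio of FDPS to IDI1 was 1.05, 1.06 and 1.16 in siNC and 1.61, 1.82 and 1.59 in siUSP43. FDPS therefore stood 1.5-fold higher relative to IDI1 in siUSP43, with no overlap. The log2 ratio of PMVK to MVK went from a mean of 3.65 to 4.24, and that of MVD to PMVK from -1.41 to -2.23. The ratio of GGPS1 to FDPS differed by less, at -1.93, -1.86 and -1.93 in siNC and -2.13, -2.27 and -2.0 in siUSP43.

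The ratio of FDFT1 to FDPS was -0.19, -0.09 and -0.18 in siNC and -1.11, -1.03 and -0.93 in siUSP43, the widest of the 8 differences at -0.87. These 5 ratios did not overlap between groups (exact two-sided permutation test, p = 0.1 each, the smallest that 3 against 3 allows, and 0.16 after Benjamini-Hochberg adjustment over the 8). Of single tested genes 62.2% did not overlap. The share among ratios of other gene pairs was not computed, so the count of ratios sets nothing apart. The ratios of HMGCS1 to ACAT2, MVK to HMGCS1 and IDI1 to MVD overlapped (exact permutation p = 0.4, 0.4 and 0.2). All of these ratios restate the changes of single genes in the same libraries and were chosen with earlier results of these data known. They are therefore a description and no separate support for the calls.

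**Figure D3:**
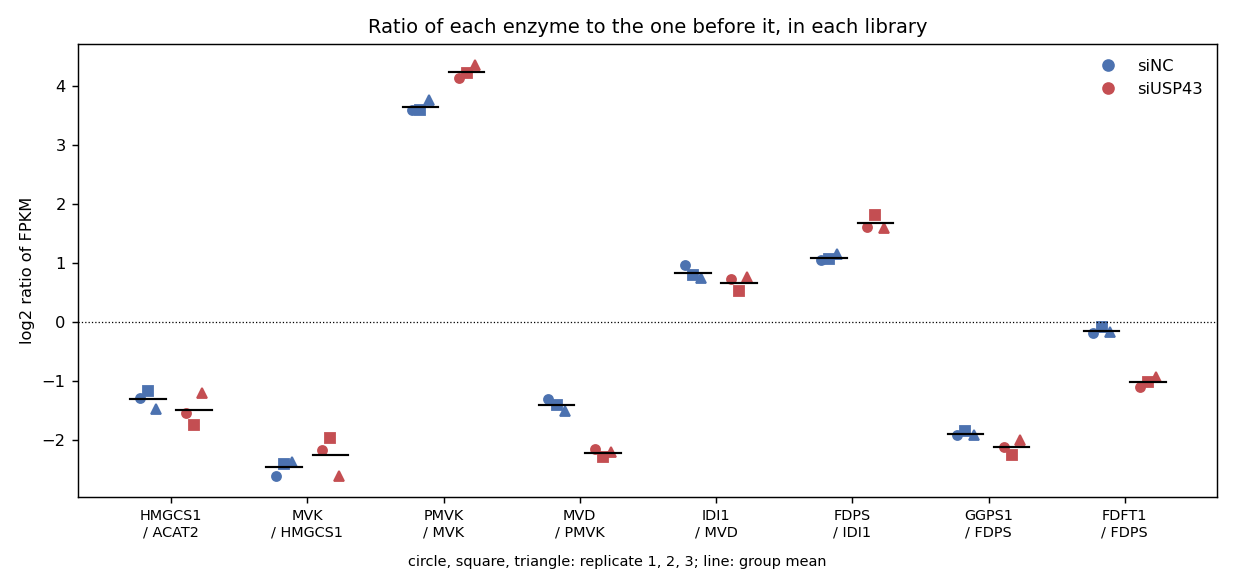
Log2 ratio of FPKM (vertical axis) of each enzyme to the one before it, with 1 symbol per library and a line at each group mean. The ratios of PMVK to MVK, MVD to PMVK, FDPS to IDI1, GGPS1 to FDPS and FDFT1 to FDPS stand apart between siNC and siUSP43, and the other 3 overlap.

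Genes around the pathway were counted from lists. Of 12 tested genes from squalene to cholesterol, 0 rose, 8 fell and 4 did not pass, with a median log2 fold change of -0.21, where 28.0% and 28.1% of all genes rose and fell and their median was -0.01. Over the alternatives the number that fell ran from 5, among fewer genes at a filter of 5 FPKM, to 8. The number that rose ran from 0 to 1. FDFT1, which takes farnesyl diphosphate into the sterol branch, was at 17.5 ± 0.208 FPKM in siNC and 12.7 ± 0.554 in siUSP43 (SD, n = 3 each), which gives -0.48 on the log2 scale (SE 0.05). DHCR7, TM7SF2 and MSMO1, which encode later sterol enzymes, fell by 0.45, 0.45 and 0.29 on the log2 scale. The call of MSMO1 ended without siNC replicate 2 (-0.24, edgeR adjusted p = 0.0578). Whether this list and the 8 enzymes differ as groups was not tested.

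Among users of the isoprenoid products, the directions were mixed. Of 11 protein prenylation genes 3 rose and 4 fell, with a median of 0.06. ICMT, the methyltransferase of prenylated proteins, rose by 0.51 (SE 0.05) and CHML, a RAB escort protein gene, by 0.40 (SE 0.09), while FNTB, the farnesyltransferase beta subunit, and CHM, the other RAB escort protein gene, fell by 0.49 and 0.43. Of 9 genes for ubiquinone, dolichol and other isoprenoid products 4 rose and 1 fell, with a median of 0.15. Over all tested genes 28.0% rose and 28.1% fell. Over the alternatives, 2 to 3 prenylation genes rose and 1 to 4 fell, while 3 to 5 of the other list rose and 0 to 1 fell. The fewest falls of each list came at the filter of 5 FPKM, which tests fewer genes.

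PDSS2, a subunit of the enzyme that builds the ubiquinone side chain, was at 1.28 ± 0.00577 FPKM in siNC and 2.55 ± 0.0681 in siUSP43 (SD, n = 3 each; log2 fold change 0.98, SE 0.10). Its siNC values are closer together (0.452%, relative SD) than the 8.29% that counting error alone would give. COQ2, which attaches that chain, rose by 0.44 and NUS1, a subunit of the dolichol chain enzyme, by 0.30. TRIT1, which puts an isopentenyl group on transfer RNA, fell by 0.96 (SE 0.07).

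Of 7 sterol control genes 3 rose and 3 fell, beside 28.0% and 28.1% of all tested genes, with a median of -0.07. SREBF1, which encodes SREBP1, fell by 0.77, SCAP, the SREBP escort protein gene, by 0.30 and INSIG2, which retains it, by 0.27, while SREBF2, which encodes SREBP2, was at 11.97 ± 0.386 FPKM in siNC and 11.5 ± 0.191 in siUSP43 (SD, n = 3 each) and did not pass. The 3 that rose were the protease genes MBTPS1 and MBTPS2, by 0.17 and 0.26, and INSIG1, the other retention protein gene, by 0.25 (SE 0.09). Only 1 of the 3 passed without siNC replicate 3, siUSP43 replicate 1 or siUSP43 replicate 3. MBTPS1 did not pass without siNC replicate 3 (edgeR adjusted p = 0.0548), and MBTPS2 did not without siNC replicate 3 or siUSP43 replicate 1 or 3 (edgeR adjusted p = 0.0896, 0.0546 and 0.0626). INSIG1 did not pass without siNC replicate 1 or 2 or siUSP43 replicate 1 or 3 (edgeR adjusted p = 0.0863, 0.0655, 0.096 and 0.0534).

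Upstream of the pathway, of 3 genes that supply cytosolic acetyl-CoA, ACSS2 fell by 0.31 and ACLY and SLC25A1 did not pass. Of the isozymes, ACAT1, the mitochondrial thiolase, rose by 0.55 (SE 0.05), from 10.2 ± 0.0557 to 15.1 ± 0.199 FPKM (SD, n = 3 each), and IDI2 was below the filter. The siNC values of ACAT1 also lie closer together (0.546%, relative SD) than the 2.40% of counting error alone.

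**Figure D4:**
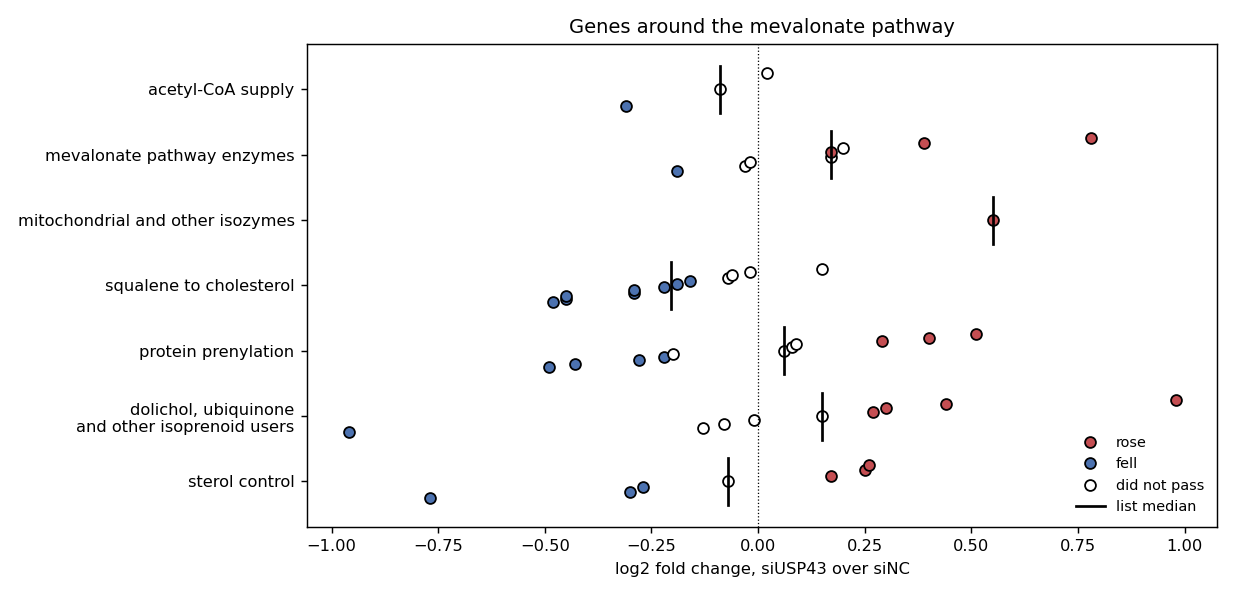
Log2 fold change of siUSP43 over siNC (horizontal axis) for the tested genes of each list, filled red where a gene rose, filled blue where it fell and open where it did not pass, with a line at the list's median. The median is 0.17 for the 8 mevalonate enzymes and -0.21 for the genes from squalene to cholesterol.

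Over the 6 libraries, PMVK and FDPS followed each other (Pearson r = 0.97 on log2(FPKM + 1)), and PMVK and IDI1 ran opposite (-0.93), while HMGCS1 and PMVK had r = -0.26. These values are a description, since the 6 libraries fall into 2 groups and any pair of genes that changed between them correlates. The tested genes most like PMVK, FDPS, IDI1 and GGPS1 by the same measure were COPS3 (r = 0.9991), CALM3 (0.9992), CROT (0.9906) and TET3 (0.9992). PMVK had 774 genes at an r of at least 0.95, FDPS 993, GGPS1 728 and IDI1 77.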

How the data were processed

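RNA of 6 T24 samples was sequenced. For each of 63241 genes the deposited table gives raw counts and FPKM, which divides counts by exonic size and by a library total, per the file headers. The submitters' processing notes name cutadapt 2.6, HISAT2 2.2.1 and the build GRCh38. Counter, annotation release and strand setting: not given in the sources used here. Exonic sizes are the authors' own, per the file headers.

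Groups and replicate numbers came from the treatment labels. Counts were tested with edgeR 4.0.16 in R 4.3.3 (quasi-likelihood, TMM scaling with library sizes summed over the whole table, group as the only term), two-sided, with Benjamini-Hochberg adjustment. Tested were 11417 genes, those whose FPKM averaged 1 or more (USP43, E2F1 and the 8 enzymes were to be kept at any level, and the 8 passed unaided). Fold changes are siUSP43 over siNC, and 95% intervals use the fit's degrees of freedom. The test was also run on simulated counts in which only a small part of the genes changed, unlike here. Its outcome is not reported here and does not bear on these calls. Alternatives were other scalings, filters, DESeq2 1.42.0, limma 3.58.1 on log2(FPKM + 1) and log2(FPKM + 0.1), a replicate block and each library left out. The 8 enzymes, the lists and the pathway ratios were chosen with earlier results of these data known. Named genes are the 8 enzymes, USP43, genes that overlap them or lie within 5 kb, the most alike gene of each called enzyme, and up to 4 passing members of each list by size of change with a few others a sentence needs. Not every gene so selected is described, and some genes of the lists are not reported here. The 8 are not the whole pathway, and its other enzymes are not analysed here. Counting errors cover sampling of reads only, since the reads carry no molecular identifiers.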

Additional observations from a re-analysis of the deposited data

How the results depend on the processing

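No called member changed direction under any alternative. PMVK and FDPS passed in all 16 alternatives, while of 128 member values 114 kept their side of the threshold, 12 lost it (GGPS1 in 9, IDI1 in 3) and 2 gained it (ACAT2 and MVK, without siUSP43 replicate 3). The count of members that fell was 1, and 0 with a replicate block (IDI1, edgeR adjusted p = 0.0619), and from 0 to 1 when a library was left out. With a filter of 5 FPKM, which tests fewer genes, 1889 genes rose and 1893 fell, against 3198 and 3211, and of the context genes 7 rose and 9 fell, against 11 and 17. Leaving out libraries gave 2 to 4 members that rose, 2718 to 3273 genes that rose and 2710 to 3275 that fell, and a USP43 log2 fold change of -1.57 to -1.27. With limma, USP43 was at -0.80 on log2(FPKM + 1) and -0.76 after quantile normalization, where the added 1 is large beside its level.

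Libraries with the same number did not deviate together: their deviations correlated at -0.013, -0.126 and -0.261. For unlike numbers the correlations ran from -0.164 to 0.27. Deviations from a mean of 3 libraries are tied to each other, so these values cannot decide whether the numbers pair the samples. With the replicate block 2775 genes rose and 2841 fell. Of the 3 sterol control genes that rose, 1 passed with the block. MVK, at 257 to 355 counts, is the member whose precision depth limits most. Leaving out a library in turn was an alternative for the 8 ratios chosen after seeing the data. The log2 difference then ran from -0.92 to -0.83 for FDFT1 to FDPS and from -0.86 to -0.76 for MVD to PMVK. It ran from 0.51 to 0.63 for FDPS to IDI1, 0.53 to 0.65 for PMVK to MVK and -0.29 to -0.16 for GGPS1 to FDPS. For the ratios that overlapped it ran from -0.33 to -0.06 (HMGCS1 to ACAT2), 0.07 to 0.39 (MVK to HMGCS1) and -0.21 to -0.09 (IDI1 to MVD).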

Other observations

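Several of the enzymes lie close to another gene's start. IDI1 and WDR37 begin 419 bases apart on opposite strands, and WDR37, at 1.53, 1.6 and 1.46 FPKM in siNC and 2.57, 2.03 and 2.65 in siUSP43, rose by 0.65 (SE 0.10, edgeR adjusted p = 1.74e-04), while IDI1 fell. MVK and MMAB, an enzyme gene of cobalamin metabolism, overlap at their starts on opposite strands, and MMAB did not pass (log2 fold change 0.11, 95% interval -0.10 to 0.31), as MVK did not. ARID4B, opposite GGPS1, had a log2 fold change of -0.10 (95% interval -0.24 to 0.05). RUSC1, 228 bases from FDPS on the same strand, had one of 0.06 (95% interval -0.12 to 0.24). CYBA, 852 bases from MVD on its strand, fell by 0.58 (SE 0.07), while MVD did not pass.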
